A study of Arabidopsis thaliana with 4 samples.

Results

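The 10 genes described here encode the dawn-phase MYB factors of the Arabidopsis circadian clock and the LNK proteins that act with them. They were chosen by their locus codes, with no threshold on their values but with earlier results of these data known. They are 10 of the 32356 genes with values in the deposited table: CCA1 (AT2G46830), LHY (AT1G01060), RVE1 (AT5G17300), RVE2 (AT5G37260), RVE4 (AT5G02840), RVE6 (AT5G52660), RVE7 (AT1G18330), RVE8 (AT3G09600), LNK1 (AT5G64170) and LNK2 (AT3G54500). All 10 passed the low-count filter.

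The plant clock is a network of transcription factors that repress and activate each other in turn through the day. CCA1 and LHY are related MYB repressors whose transcripts peak around dawn, and they hold down evening genes through a promoter motif called the evening element. RVE8, RVE6 and RVE4 carry a similar MYB domain but activate genes through the same motif, with LNK1 and LNK2 as coactivators that lack a DNA-binding domain of their own. RVE1, RVE2 and RVE7 are further dawn-phase MYB factors placed mainly on clock outputs, among them auxin synthesis for RVE1 in the same species.

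RNA with poly(A) tails was sequenced from shoot apices dissected from 10-day-old Col-0 plants. All groups were grown for 9 days on drug-free solid MS medium under 16 h light and 8 h dark at 21 °C, and were then moved to liquid medium for 24 h. That liquid was either drug-free or held 20 µM zebularine, a cytidine analogue that is built into DNA and traps DNA methyltransferases. The plants were wild type or nse4a-2, a mutant of NSE4A, the kleisin subunit of the SMC5/6 complex that acts in DNA repair. The groups are WT_ctrl and nse4a-2_ctrl without drug and WT_zeb and nse4a-2_zeb with it, each with 2 libraries that the table's header calls biological replicates. The labels name no other allele, transgene or complemented line, give neither the lesion of nse4a-2 nor the hour of harvest, and do not say whether the replicates were grown separately, so p-values measure the spread between these libraries.

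Total read counts ran from 15360494 to 19811948 per library, and 3 counts correspond to 0.147 to 0.192 CPM, the read count scaled to the library's reads in the genes tested times its TMM factor (0.957 to 1.03). NSE4A itself stood at 10.7 and 9.23 CPM in WT_ctrl against 10.5 and 12.9 in WT_zeb, and at 8.40 and 7.79 in nse4a-2_ctrl against 18.5 and 21.1 in nse4a-2_zeb, and since the lesion is not given these sums over the gene do not check the genotype labels. All 6 shoot meristem markers had reads in 3 of the 4 groups, with KNAT1 at 20.9 to 38.0 CPM and STM at 13.6 to 21.3, while WUS was at 0 in both nse4a-2_zeb libraries and never above 0.192 CPM. CLV3 was low as well, with 37 reads over all libraries, 0 in nse4a-2_ctrl replicate 2 and never above 0.384 CPM. The 3 root markers summed to 0.196 to 3.97 CPM, and those of leaf photosynthesis to 5735 to 9692 CPM, with reads for all 5 leaf markers in every group. Of the root markers COBL9, a root hair gene, was called 15.2-fold higher with zebularine in nse4a-2 (38 and 61 reads against 4 and 2, adjusted p 0.00362) and 21.9-fold higher there than in WT_zeb (0.00125), its part in the members' values was not tested, and in wild type it stood at −1.84 ± 0.76 (0.273). Of the other root markers, PRP3 was at −2.64 ± 1.11 with zebularine in nse4a-2 (adjusted p 0.148) and at −0.91 ± 1.30 against wild type in zebularine (0.659), and RSL4, below the count filter, averaged 0.190 CPM in nse4a-2_ctrl and 0.0288 in nse4a-2_zeb. In whole apices, fewer cells of a type and less RNA per cell cannot be told apart.

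Promoter windows are shown for the 5 members that hold a G-box or an evening element within 300 bases upstream of the annotated gene start, since light and clock factors are known to bind such letters. The window of RVE6, whose only match was the CCA1-binding site, is not shown. They were read from the RefSeq TAIR10.1 assembly with that assembly's own annotation. The deposited table was made on TAIR10 and holds no coordinates, so none were converted. The windows lie at chr2:19245291-19245590 on the plus strand for CCA1, and on the minus strand at chr1:37872-38171 for LHY, chr5:5692993-5693292 for RVE1, chr5:14753089-14753388 for RVE2 and chr1:6308244-6308543 for RVE7. None of these 5 windows overlapped an annotated exon, whereas those of RVE4 and LNK1, which held no match and are not shown, did. Each is written 5′ to 3′ towards the gene, with motif matches in capitals: CACGTG is the G-box, AAAAATCT the CCA1-binding site and AAAATATCT the evening element.
CCA1: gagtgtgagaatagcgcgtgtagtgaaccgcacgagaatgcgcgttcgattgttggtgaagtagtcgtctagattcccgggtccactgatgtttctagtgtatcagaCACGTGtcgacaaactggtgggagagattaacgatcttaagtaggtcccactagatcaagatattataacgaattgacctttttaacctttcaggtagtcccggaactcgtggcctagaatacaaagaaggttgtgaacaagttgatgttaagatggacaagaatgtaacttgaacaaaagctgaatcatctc
LHY: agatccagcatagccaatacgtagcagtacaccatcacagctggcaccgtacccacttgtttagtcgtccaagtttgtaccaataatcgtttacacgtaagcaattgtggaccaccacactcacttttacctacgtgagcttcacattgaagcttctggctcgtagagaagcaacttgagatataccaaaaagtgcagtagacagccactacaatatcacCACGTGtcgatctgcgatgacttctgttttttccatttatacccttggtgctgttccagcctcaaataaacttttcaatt
RVE1: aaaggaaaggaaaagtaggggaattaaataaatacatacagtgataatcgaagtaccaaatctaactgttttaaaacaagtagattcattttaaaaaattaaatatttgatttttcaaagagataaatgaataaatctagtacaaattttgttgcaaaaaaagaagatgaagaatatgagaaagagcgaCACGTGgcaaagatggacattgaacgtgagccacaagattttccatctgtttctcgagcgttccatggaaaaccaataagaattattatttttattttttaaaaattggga
RVE2: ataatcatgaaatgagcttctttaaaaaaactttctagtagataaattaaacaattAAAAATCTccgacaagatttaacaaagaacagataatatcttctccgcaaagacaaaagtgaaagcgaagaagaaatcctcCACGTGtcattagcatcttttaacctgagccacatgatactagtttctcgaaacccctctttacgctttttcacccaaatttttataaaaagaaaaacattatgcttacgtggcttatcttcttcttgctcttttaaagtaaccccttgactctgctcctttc
RVE7: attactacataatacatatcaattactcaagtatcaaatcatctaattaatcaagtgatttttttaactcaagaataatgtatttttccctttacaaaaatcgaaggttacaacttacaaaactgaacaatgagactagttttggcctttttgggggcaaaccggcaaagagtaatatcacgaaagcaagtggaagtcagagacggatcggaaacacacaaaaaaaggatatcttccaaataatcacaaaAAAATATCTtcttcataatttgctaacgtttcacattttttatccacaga

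A G-box was found in the windows of 4 of the 10 members, against 7.09% of 27443 protein-coding promoters of the same length, and in those of 5 of 20 day and evening clock genes (PRR9, TIC, LUX, PRR7 and BOA). It began 193 bases before the gene start in CCA1, 80 in LHY, 111 in RVE1 and 163 in RVE2. The CCA1-binding site was found in RVE2 and RVE6, 244 and 58 bases before the start, in 7.94% of all windows and in 3 of the 20 day and evening clock genes. The evening element was found in RVE7 alone, 50 bases before the start, and in 2.79% of all windows, whereas 6 of the 20 day and evening clock genes held it (FKF1, LUX, PRR5, COR27, BOA and TOC1). Another motif, the TCP site GGGCCCAC, was found in none of the members and in 0.186% of all windows. Both strands were searched, and none of these motifs contains another. In windows of 1000 bases the members with a G-box were 5, with RVE8 added, against 14.8% of all promoters and 7 of the 20 clock genes. At that length the evening element was again found in RVE7 alone, against 7.24% of all promoters and 8 of the 20 clock genes. The CCA1-binding site was then found in 3 members, with LHY added, against 21.1% of all promoters and 6 of the 20 clock genes. A match describes the letters and not a bound site.

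**Figure D1:**
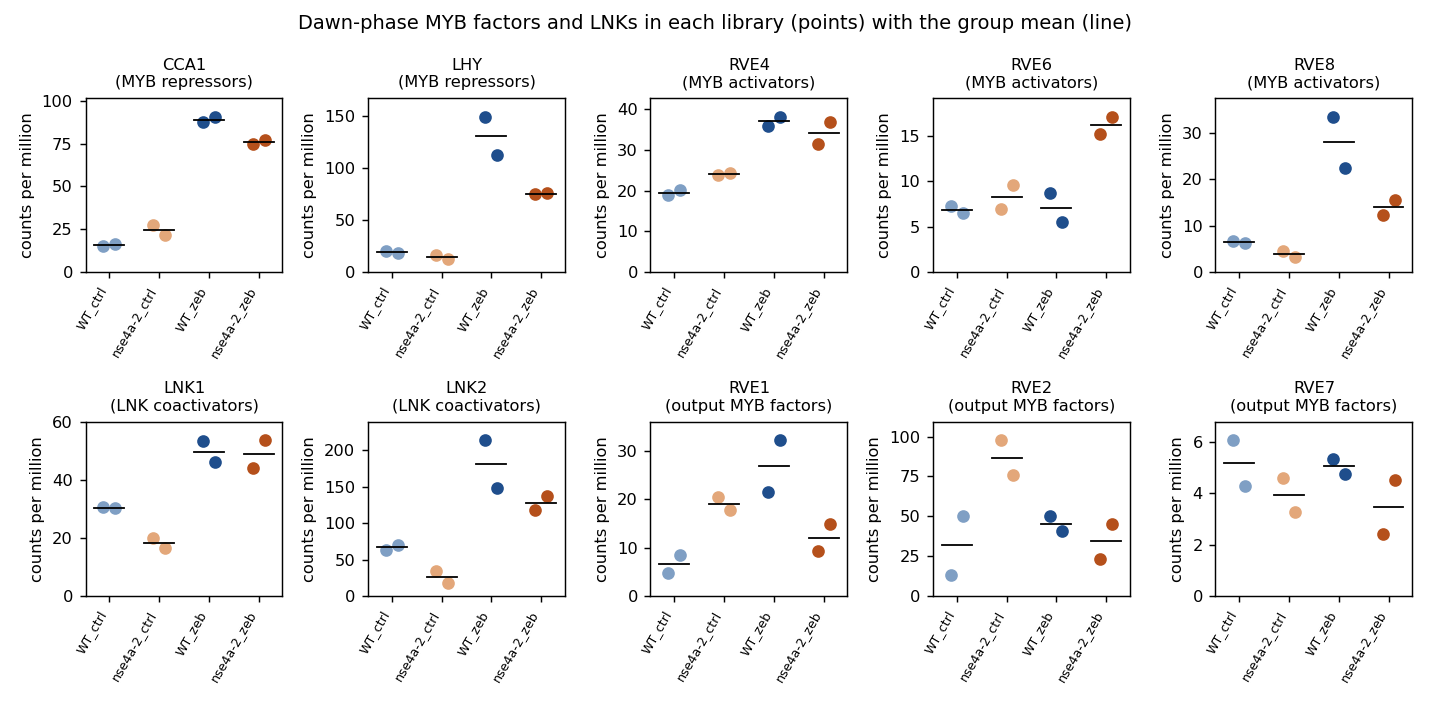
Read counts as CPM (vertical axis, from 0, own scale per gene) of the 10 members in each of the 8 libraries; points are single libraries and lines the mean of the 2 libraries of a group. The drug-treated libraries of CCA1, LHY, RVE4, RVE8, LNK1 and LNK2 all lie above the untreated ones, whereas RVE1 is lowest in WT_ctrl and RVE7 varies between 2.41 and 6.06.

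Per unit of gene length, in the authors' mean FPKM, the members spanned a wide range within every group. In WT_ctrl the order was RVE2 at 39.45, LNK2 at 29.66, RVE4 at 15.83, LNK1 at 12.78, CCA1 at 8.02, LHY at 7.47, RVE8 at 5.47, RVE6 at 5.19, RVE1 at 3.92 and RVE7 at 3.77 FPKM. Each library was placed on that scale with 1 factor per gene, and neighbours in the order overlapped for RVE2 with LNK2, for CCA1 with LHY, and along the run from RVE8 to RVE7. RVE2 spread from 16.8 to 62.8 on this scale between the 2 WT_ctrl libraries, so its first place rests on 1 of them.

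LHY stood higher in that order after zebularine in both genotypes. In WT_zeb the order was LNK2 at 81.34, RVE2 at 56.93, LHY at 51.3, CCA1 at 47.13, RVE4 at 30.3, RVE8 at 23.81, LNK1 at 20.95, RVE1 at 16.05, RVE6 at 5.39 and RVE7 at 3.69 FPKM. In nse4a-2_zeb LNK2 led at 57.94, followed by RVE2 at 43.18, CCA1 at 39.15, LHY at 29.65, RVE4 at 27.79, LNK1 at 20.85, RVE6 at 12.35, RVE8 at 12.08, RVE1 at 7.2 and RVE7 at 2.52 FPKM. The libraries of RVE2 and LHY, of LHY and CCA1, and of RVE8 and LNK1 overlapped in WT_zeb, and those of LNK2 and RVE2, RVE2 and CCA1, LHY and RVE4, and RVE6 and RVE8 in nse4a-2_zeb. In nse4a-2_ctrl RVE2 stood first at 108.69 FPKM with no overlap, above RVE4 at 19.75, CCA1 at 12.78, LNK2 at 11.71, RVE1 at 11.36, LNK1 at 7.78, RVE6 at 6.3, LHY at 5.51, RVE8 at 3.37 and RVE7 at 2.86 FPKM. Among these, the libraries of CCA1 and LNK2, LNK2 and RVE1, LNK1 and RVE6, RVE6 and LHY, and RVE8 and RVE7 overlapped.

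Most members rose after 24 h of zebularine in both genotypes, while the genotypes differed in fewer of them and in both directions. In wild type 7 of the 10 members were called higher and 0 lower by edgeR's quasi-likelihood test at an adjusted p below 0.05, where 1.66% of the 19682 genes tested were called higher and 0.635% lower. In nse4a-2 the count was again 7 higher and 0 lower, against 8.94% and 5.74% of all genes. At an unadjusted p below 0.05 no member was lower in wild type and RVE2 was in nse4a-2, and DESeq2 called 0 in each. Their median log2 fold changes were 1.18 and 1.19 in that order of genotypes, beside −0.009 and −0.00065 over all genes tested.

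Between genotypes in control medium 2 members were higher in nse4a-2 and 2 lower, against 2.28% and 0.854% of all genes. In zebularine 1 member was higher and 3 were lower, where 12.9% and 9.09% of all genes were called. The members' medians for these contrasts were −0.07 and −0.45, beside −0.0077 and −0.022 over all genes tested. Each group enters 2 of these 4 comparisons, so they are not independent of one another. A fit without 1 library leaves 1 library in its group, and the share of all genes called in such fits is not given here. Without WT_ctrl replicate 1 the count for zebularine in wild type was 3, namely CCA1, LHY and RVE8, and without any 1 of the libraries that for nse4a-2 ran from 5 to 7.

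**Figure D2:**
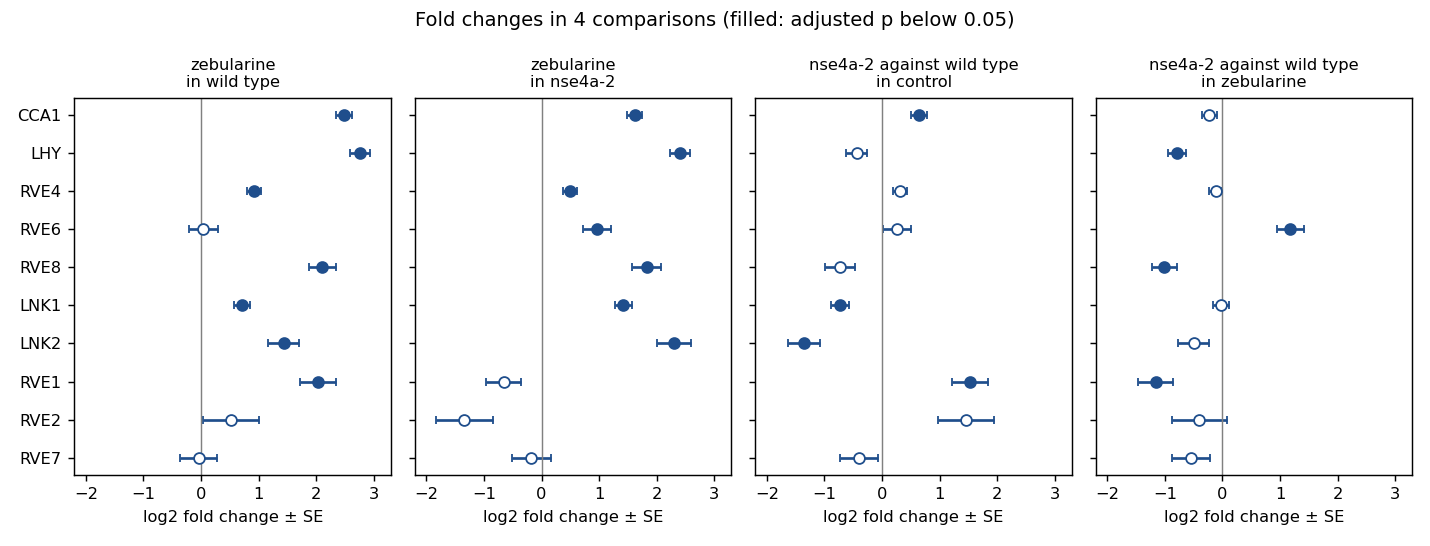
Log2 fold changes (horizontal axis) with their standard errors for the 10 members in 4 comparisons, filled where the adjusted p was below 0.05. The first 2 panels show 7 filled points to the right of 0 each, and the 2 genotype panels show filled points on both sides.

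The repressors CCA1 and LHY showed the lowest adjusted p-values of the members in wild type. CCA1 stood at 15.0 and 16.7 CPM in WT_ctrl against 87.3 and 90.7 in WT_zeb, and at 27.7 and 21.7 in nse4a-2_ctrl against 74.9 and 77.3 in nse4a-2_zeb. Every treated library was therefore above every untreated one, and the WT_zeb libraries were the highest. CCA1 was 5.62-fold higher with zebularine in wild type (log2 2.49 ± 0.14 SE, adjusted p 0.000194) and 3.08-fold higher in nse4a-2 (log2 1.62 ± 0.13, adjusted p 0.000195).

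LHY stood at 20.3 and 18.0 CPM in WT_ctrl against 149 and 112 in WT_zeb, and at 16.0 and 12.4 in nse4a-2_ctrl against 74.5 and 75.7 in nse4a-2_zeb. As for CCA1, treated and untreated libraries did not overlap, but here the nse4a-2 libraries lay below the wild-type ones in both media. LHY was 6.79-fold higher with zebularine in wild type (log2 2.76 ± 0.17, adjusted p 0.000194) and 5.30-fold higher in nse4a-2 (log2 2.41 ± 0.17, adjusted p 0.000135). These 4 calls held without any 1 of the 8 libraries.

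Between the genotypes, CCA1 passed the test in control medium and LHY in zebularine. In control medium CCA1 was 1.56-fold higher in nse4a-2 (log2 0.64 ± 0.14, adjusted p 0.0385), while LHY was at −0.44 ± 0.18 (adjusted p 0.226). In zebularine LHY was 1.73-fold lower in nse4a-2 (log2 −0.79 ± 0.16, adjusted p 0.00697), while CCA1 was at −0.23 ± 0.13 (adjusted p 0.234). The LHY call was lost without nse4a-2_zeb replicate 2 (adjusted p 0.0513). The CCA1 call in control medium was lost when either WT_ctrl library (adjusted p 0.268 and 0.0879), nse4a-2_ctrl replicate 1 (0.096) or either nse4a-2_zeb library (0.0635 and 0.0638) was left out, and with only the 2 groups compared in the fit (0.0904).

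Within each library the ratio of CCA1 to LHY reads removes any shift in scaling between libraries. It was 0.737 and 0.929 in WT_ctrl, 0.587 and 0.811 in WT_zeb, 1.74 and 1.75 in nse4a-2_ctrl, and 1.01 and 1.02 in nse4a-2_zeb. All 4 nse4a-2 libraries lay above all 4 wild-type ones. The ratio was chosen after the values were seen and carries no test.

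**Figure D3:**
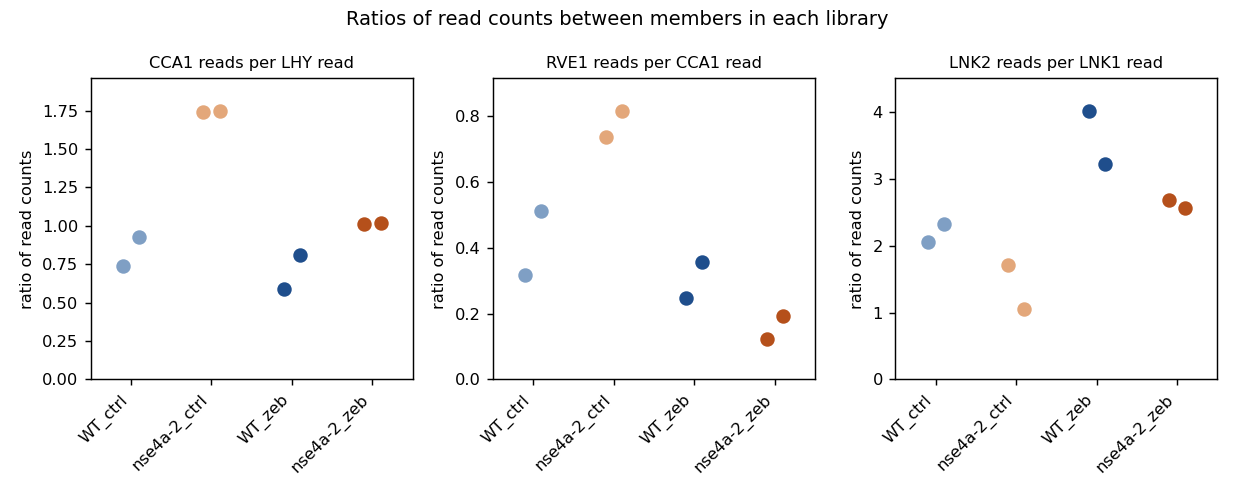
Ratio of read counts (vertical axis, from 0) of CCA1 to LHY, RVE1 to CCA1 and LNK2 to LNK1 in each of the 8 libraries; points are single libraries, 2 per group. CCA1 reads per LHY read were 1.01 to 1.75 in nse4a-2 and 0.587 to 0.929 in wild type; RVE1 reads per CCA1 read were highest in nse4a-2_ctrl and lowest in nse4a-2_zeb.

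Of the activators, RVE8 followed the repressors most closely. RVE8, which activates afternoon and evening genes, stood at 6.72 and 6.28 CPM in WT_ctrl against 33.5 and 22.5 in WT_zeb, and at 4.52 and 3.34 in nse4a-2_ctrl against 12.4 and 15.5 in nse4a-2_zeb. The nse4a-2 libraries were the lower ones in each medium, without overlap. RVE8 was 4.31-fold higher with zebularine in wild type (log2 2.11 ± 0.23, adjusted p 0.00407) and 3.55-fold higher in nse4a-2 (log2 1.83 ± 0.25, adjusted p 0.00173), and both calls held without any 1 library. It was 2.01-fold lower in nse4a-2 than in wild type in zebularine (log2 −1.01 ± 0.22, adjusted p 0.00999), a call lost without WT_zeb replicate 1 (0.0715) or nse4a-2_zeb replicate 1 (0.0697). In control medium its genotype difference was −0.73 ± 0.26 (adjusted p 0.17).

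RVE4, a closely related activator, changed less. It stood at 18.9 and 20.1 CPM in WT_ctrl against 35.9 and 38.1 in WT_zeb, and at 23.9 and 24.3 in nse4a-2_ctrl against 31.4 and 36.7 in nse4a-2_zeb. Treated libraries lay above untreated ones, and the treated groups of both genotypes overlapped. It was 1.90-fold higher with zebularine in wild type (log2 0.92 ± 0.12, adjusted p 0.00833) and 1.41-fold higher in nse4a-2 (log2 0.50 ± 0.12, adjusted p 0.0235). The wild-type call was lost without WT_ctrl replicate 1 (adjusted p 0.109). The nse4a-2 call was lost without nse4a-2_ctrl replicate 1 (0.0885), nse4a-2_ctrl replicate 2 (0.0601) or nse4a-2_zeb replicate 2 (0.208), and with only the 2 groups compared in the fit (0.0515).

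RVE6, the third activator, was high in 1 group. It stood at 7.27 and 6.47 CPM in WT_ctrl against 8.68 and 5.47 in WT_zeb, and at 6.93 and 9.59 in nse4a-2_ctrl against 15.2 and 17.1 in nse4a-2_zeb. The other 3 groups overlapped one another. It was 1.95-fold higher with zebularine in nse4a-2 (log2 0.96 ± 0.24, adjusted p 0.0262), and 0.04 ± 0.25 on the log2 scale in wild type (adjusted p 0.966). In zebularine it was 2.27-fold higher in nse4a-2 than in wild type (log2 1.18 ± 0.24, adjusted p 0.00734). The difference between both zebularine responses, 0.92 ± 0.34, did not pass the test (adjusted p 0.261). The response in nse4a-2 lost its call without nse4a-2_ctrl replicate 1 (0.153), nse4a-2_zeb replicate 1 (0.0611) or nse4a-2_zeb replicate 2 (0.164), and the genotype call was lost without nse4a-2_zeb replicate 2 (0.0562).

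Both LNK coactivators were lowest in nse4a-2 without drug and higher with zebularine in either genotype. LNK1 stood at 30.6 and 30.3 CPM in WT_ctrl against 53.2 and 46.0 in WT_zeb, and at 20.1 and 16.5 in nse4a-2_ctrl against 44.0 and 53.6 in nse4a-2_zeb. The nse4a-2_ctrl libraries lay below all others, and the treated groups overlapped. LNK1 was 1.63-fold higher with zebularine in wild type (log2 0.71 ± 0.14, adjusted p 0.0376) and 2.67-fold higher in nse4a-2 (log2 1.42 ± 0.15, adjusted p 0.000496). It was 1.66-fold lower in nse4a-2 than in wild type in control medium (log2 −0.73 ± 0.15, adjusted p 0.0306), and at −0.02 ± 0.14 in zebularine (adjusted p 0.922).

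LNK2 stood at 63.0 and 70.3 CPM in WT_ctrl against 214 and 148 in WT_zeb, and at 34.4 and 17.4 in nse4a-2_ctrl against 118 and 138 in nse4a-2_zeb. The 4 groups did not overlap, and the nse4a-2 libraries were the lower ones in each medium. LNK2 was 2.72-fold higher with zebularine in wild type (log2 1.44 ± 0.27, adjusted p 0.0308) and 4.94-fold higher in nse4a-2 (log2 2.30 ± 0.29, adjusted p 0.00118). In control medium it was 2.57-fold lower in nse4a-2 (log2 −1.36 ± 0.28, adjusted p 0.0337), and in zebularine it was at −0.50 ± 0.27 (adjusted p 0.21). Reads of LNK2 per read of LNK1 were at 2.06 and 2.32 in WT_ctrl against 4.02 and 3.22 in WT_zeb, and at 1.71 and 1.05 in nse4a-2_ctrl against 2.68 and 2.57 in nse4a-2_zeb, so that the ratio was higher with zebularine in both genotypes. This ratio was not among the planned results and carries no test.

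The LNK calls for zebularine in nse4a-2 held without any 1 of the 8 libraries. The call of LNK1 in wild type was lost without WT_ctrl replicate 1 (adjusted p 0.245) or 2 (0.111) or WT_zeb replicate 1 (0.13) or 2 (0.0585), and with only the 2 groups compared in the fit (0.0501), and that of LNK2 without WT_ctrl replicate 1 (0.229) or 2 (0.0627) or WT_zeb replicate 1 (0.104). In control medium the genotype call of LNK1 was lost without WT_ctrl replicate 1 (0.176) or 2 (0.0964) or nse4a-2_ctrl replicate 1 (0.0521) or 2 (0.176), and that of LNK2 without WT_ctrl replicate 1 (0.125) or 2 (0.0985) or nse4a-2_ctrl replicate 2 (0.131).

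RVE1, which drives auxin synthesis genes and hypocotyl growth, responded to zebularine differently in the 2 genotypes by the test of that difference. It stood at 4.74 and 8.52 CPM in WT_ctrl against 21.6 and 32.2 in WT_zeb, and at 20.4 and 17.7 in nse4a-2_ctrl against 9.27 and 14.8 in nse4a-2_zeb. Wild-type libraries were the lowest without drug and the highest with it. RVE1 was 4.08-fold higher with zebularine in wild type (log2 2.03 ± 0.31, adjusted p 0.0148), while in nse4a-2 it stood at −0.66 ± 0.30 (adjusted p 0.173). Against wild type it was 2.89-fold higher in nse4a-2 in control medium (log2 1.53 ± 0.31, adjusted p 0.0323) and 2.23-fold lower in zebularine (log2 −1.16 ± 0.30, adjusted p 0.0214).

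The difference between both zebularine responses of RVE1 was −2.69 ± 0.43 on the log2 scale (adjusted p 0.0296), the single call among the members for that contrast, where 0.224% of all genes were called lower and 0.549% higher. It ran from −3.17 to −2.33 when single libraries were left out, and the call was lost without WT_ctrl replicate 1 (adjusted p 0.0666), nse4a-2_ctrl replicate 1 (0.0968) or 2 (0.0662) or nse4a-2_zeb replicate 1 (0.0704) or 2 (0.0757). The wild-type response of RVE1 was lost as a call without WT_ctrl replicate 1 (0.114). The genotype call in control medium was lost without WT_ctrl replicate 1 (0.188) or nse4a-2_ctrl replicate 1 (0.102) or 2 (0.112), and that in zebularine without WT_zeb replicate 2 (0.117) or nse4a-2_zeb replicate 1 (0.124).

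Set against CCA1 in the same library, RVE1 reads were 0.316 and 0.510 of CCA1 reads in WT_ctrl and 0.736 and 0.815 in nse4a-2_ctrl. With zebularine they were 0.248 and 0.355 in wild type against 0.124 and 0.191 in nse4a-2. The ratio was thus highest in nse4a-2 without drug and lowest in nse4a-2 with it, a description chosen after the values were seen.

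RVE2 varied most between replicates. It stood at 13.4 and 50.2 CPM in WT_ctrl against 50.2 and 40.6 in WT_zeb, and at 97.7 and 75.8 in nse4a-2_ctrl against 23.4 and 45.1 in nse4a-2_zeb. The nse4a-2_ctrl libraries were the highest, and the other groups overlapped one another. The 2 WT_ctrl libraries differed 3.75-fold, the widest gap between replicates among the members. No contrast of RVE2 passed the test, with log2 0.52 ± 0.49 for zebularine in wild type (adjusted p 0.695), −1.34 ± 0.49 in the mutant (0.099) and 1.46 ± 0.49 between genotypes without drug (0.153). Between genotypes without drug it was also called with no low-count filter. Without WT_ctrl replicate 2 that contrast was called at 2.71 (adjusted p 0.0117), zebularine in wild type at 1.77 (0.0339) and the difference of the responses at −3.11 (0.0447), and without WT_ctrl replicate 1 or 2 zebularine in nse4a-2 was called at −1.34 (0.0114 and 0.0111).

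RVE7 had the fewest reads of the members, 614 over the 8 libraries, and no contrast of it passed the test. It stood at 6.06 and 4.29 CPM in WT_ctrl against 5.34 and 4.76 in WT_zeb, and at 4.58 and 3.28 in nse4a-2_ctrl against 2.41 and 4.50 in nse4a-2_zeb. Its log2 fold changes ran from −0.54 ± 0.33 for the genotype in zebularine (adjusted p 0.269) to −0.04 ± 0.32 for zebularine in wild type (adjusted p 0.977). The locus AT3G10113, listed beside it as a relative, had 0 reads in all 8 libraries, so any reads shared between both loci cannot be seen in these counts.

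**Figure D4:**
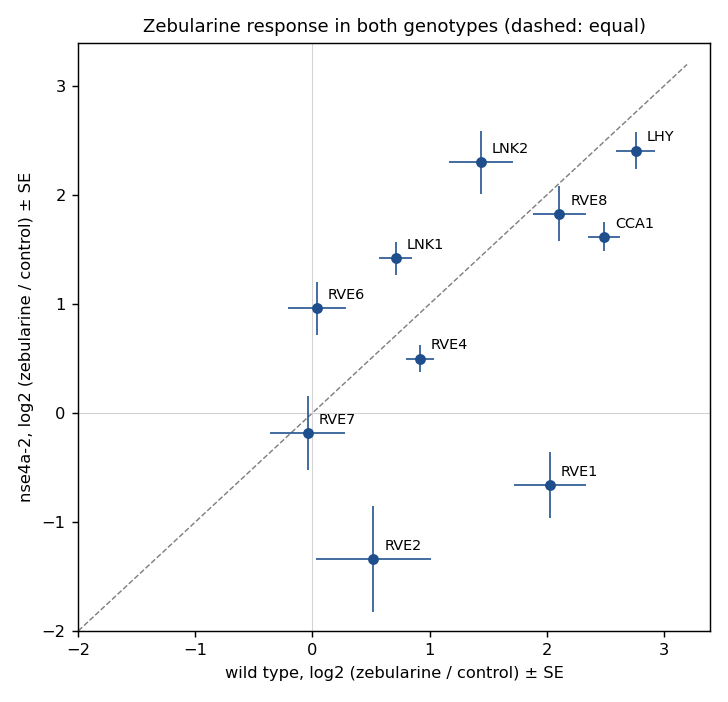
Log2 fold change with zebularine in nse4a-2 (vertical axis) against that in wild type (horizontal axis) for the 10 members, with standard errors on both axes and a dashed line where they are equal. RVE1 (2.03 and −0.66) and RVE2 (0.52 and −1.34) lie farthest below the line, and both LNK genes and RVE6 lie above it; the control groups differ between the axes, and the difference passed the test for RVE1 alone of the members.

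Besides RVE1, no member's zebularine response was shown to differ between the genotypes. For CCA1 the response in nse4a-2 minus that in wild type was −0.87 ± 0.19 on the log2 scale (adjusted p 0.0708), and DESeq2 (adjusted p 0.0204), the fit without a low-count filter (0.0203) and the fit without nse4a-2_ctrl replicate 2 (−1.04, 0.0439) did call it. For LNK1 and LNK2 it was 0.71 ± 0.20 (adjusted p 0.147) and 0.86 ± 0.39 (0.353). RVE2 had the second largest difference of the members, −1.86 ± 0.69 (adjusted p 0.254). No member was called with a larger response in nse4a-2 by edgeR or by DESeq2, while at an unadjusted p below 0.05 it was larger for 2, RVE6 and LNK1, and smaller for 4, CCA1, RVE4, RVE1 and RVE2. The share of all genes at that unadjusted threshold is not given here, so these counts have no background to be read against. LHY, RVE8 and RVE4 stood at −0.36 ± 0.24, −0.28 ± 0.34 and −0.42 ± 0.17, with adjusted p of 0.549, 0.77 and 0.296.

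The genes most like each member were those with the smallest root-mean-square difference of log2(CPM + 0.1) profiles over the 8 libraries, each centred on its own mean. Among the members LHY with RVE8 and RVE8 with LNK2 both differed by 0.35, and of these pairs the first was within the 3 closest genes. LNK3, a relative of LNK1 and LNK2, was closest to CCA1 (0.35), and LNK4 was among the 3 closest to LHY (0.37), RVE8 (0.31) and LNK2 (0.29). Closest to RVE8 was AT5G44575 (0.22), and the anthocyanin enzyme gene DFR was also among those of RVE8 (0.26). LNK1 and LNK2 had light-harvesting genes as their closest, LHB1B2 at 0.14 and LHCB2.3 at 0.24. Closest to RVE1 was AT1G76640 (0.30), and MYC2, a regulator of jasmonate responses, was also among those of RVE1 (0.33). RVE4 and RVE6 had AT3G05320 (0.08) and AT4G33565 (0.14), RVE2 had AT5G52055 (0.28), and RVE7 had the chorismate mutase gene CM3 (0.12). AT5G52055 stood at 0.0551 CPM in WT_ctrl replicate 1 and never above 1.02 CPM. Around their own means the root-mean-square of RVE4 and RVE7 was 0.38 and that of LHY 1.33, so a small distance means less for RVE4 and RVE7. With 8 libraries in 4 groups, such likeness rests on few points.

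Among 5 listed relatives, 3 could be tested, and LNK3 and LNK4 were called higher with zebularine in both genotypes, against 1.66% of all genes in wild type and 8.94% in nse4a-2. LNK3 stood at 5.23 and 6.34 CPM in WT_ctrl against 28.1 and 21.5 in WT_zeb, and at 8.71 and 4.95 in nse4a-2_ctrl against 13.4 and 19.2 in nse4a-2_zeb, with log2 fold changes of 2.1 ± 0.28 (adjusted p 0.0088) in wild type and 1.26 ± 0.28 (0.017) in nse4a-2. LNK4 changed by 1.88 ± 0.26 (0.00987) and 2.34 ± 0.27 (0.000822). The third, AT4G01280, stood between 6.06 and 13.3 CPM and was called in no comparison, and ASG4 was below the count filter. Without WT_ctrl replicate 1 neither was called in wild type, and without nse4a-2_ctrl replicate 2 or nse4a-2_zeb replicate 2 only 1 was called in nse4a-2.

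No test compared the day and evening clock genes with the dawn members. Of 20 day and evening clock genes, 6 were called lower with zebularine in wild type and 0 higher, with a median of −0.68, where 0.635% and 1.66% of all genes were called. The 6 were the evening-complex genes ELF4 (−3.02 ± 0.47), BOA (−1.96 ± 0.42) and ELF3 (−0.59 ± 0.11), the demethylase gene JMJD5 (−2.87 ± 0.31), and the pseudo-response regulators PRR3 (−2.84 ± 0.25) and TOC1 (−0.97 ± 0.20). At an unadjusted p below 0.05, 2 were higher, PRR9 and CHE, and 2 were called higher by DESeq2, with no low-count filter and with the replicate block. In nse4a-2 zebularine gave 3 calls higher, PRR9 (2.94 ± 0.51), GI (1.29 ± 0.31) and PRR7 (1.18 ± 0.14), and 1 lower, JMJD5 (−0.94 ± 0.28, adjusted p 0.0481), with a median of 0.29. These shares of the 20 are near the 8.94% and 5.74% of all genes. The count lower in wild type was 2 without WT_ctrl replicate 1, 3 without WT_ctrl replicate 2, 11 without WT_zeb replicate 2 and 2 with only those groups in the fit, and JMJD5 in nse4a-2 was lost with DESeq2 (adjusted p 0.178), with RLE size factors (0.0529) and without any 1 of the control or nse4a-2_zeb libraries.

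Set against wild type in zebularine, nse4a-2 had 13 of these 20 genes higher and 0 lower, against 12.9% and 9.09% of all genes, with a median of 1.68, while the dawn members had a median of −0.45. The largest were COR27 (4.70 ± 0.87), ELF4 (4.53 ± 0.47), AT4G33980 (3.92 ± 0.77), FKF1 (2.94 ± 0.80), JMJD5 (2.80 ± 0.31) and GI (2.07 ± 0.32). The sizes and their order rest in part on WT_zeb replicate 1: without it COR27 was at 3.67, ELF4 at 3.71, AT4G33980 at 3.02, FKF1 at 2.01, JMJD5 at 2.27 and GI at 1.59, all still called. No gene of this list was lower at an unadjusted p below 0.05 or by DESeq2. The count was 8 without nse4a-2_zeb replicate 2. In control medium 0 were higher and PRR3 was lower (−1.09 ± 0.23), against 2.28% and 0.854% of all genes, while 4 were higher at an unadjusted p below 0.05 and DESeq2 called 1. Without either WT_zeb library the count higher was 4, and without WT_ctrl replicate 1, either nse4a-2_ctrl or either nse4a-2_zeb library PRR3 was not called.

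The WT_zeb libraries differed over 2-fold in 9 of these 20 genes and in 0 of the members, whose widest gap was 1.59-fold. They did so in 3 of 18 clock outputs and 0 of 7 light input genes, and the share of all genes is not given here. COR27 had 1 read in replicate 1 (0.049 CPM) and 10.6 CPM in replicate 2, AT4G33980 had 1.23 and 12.4 CPM, and in replicate 2 FKF1 was 16.0-fold, PRR5 7.08-fold and ELF4 6.04-fold higher. In the same pair of libraries 7 of the members were lower in replicate 2, RVE6 by the most (1.59-fold), RVE1 was 1.49-fold higher there, and CCA1 and RVE4 differed by 1.04-fold and 1.06-fold. The hour of harvest is not given for any library, and its part in these results was not tested.

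**Figure D5:**
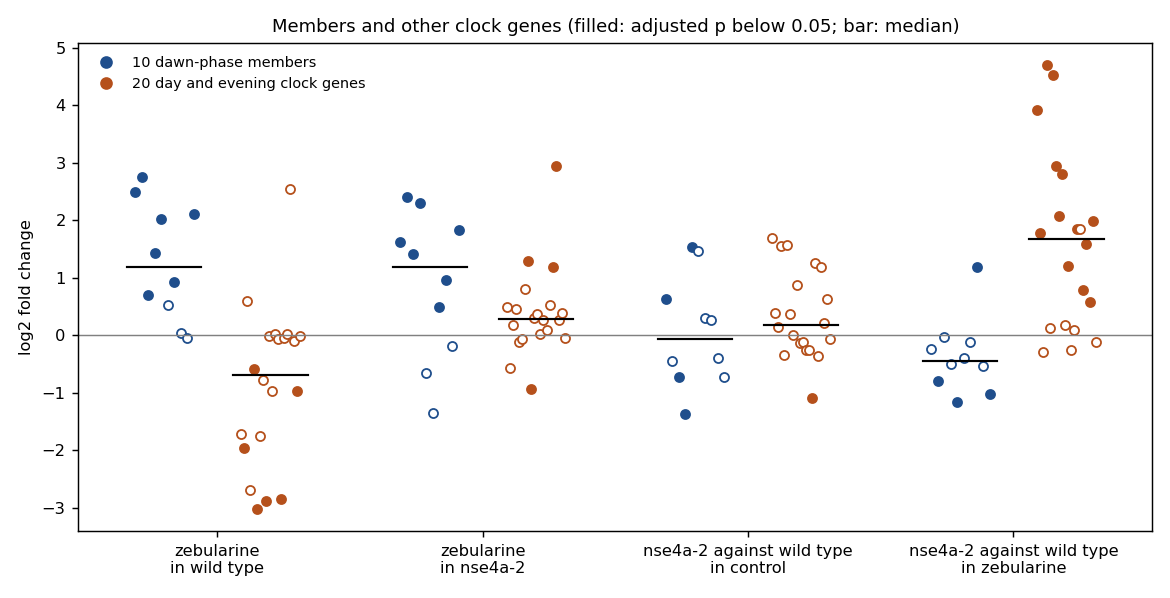
Log2 fold change (vertical axis) of the 10 dawn-phase members and of 20 day and evening clock genes in 4 comparisons (horizontal axis); filled points passed the test and bars are the list medians. With zebularine in wild type the medians are 1.18 and −0.68, and between the genotypes in zebularine they are −0.45 and 1.68.

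Of 19 clock output genes, 18 could be tested. With zebularine in wild type 6 were called higher and 2 lower, against 1.66% and 0.635% of all genes, with DFR (2.50 ± 0.21), the cold regulator gene CBF1 (1.56 ± 0.29), the catalase gene CAT2 (1.19 ± 0.19) and the flowering repressor gene CDF1 (1.16 ± 0.22) among the higher, and the RNA-binding protein genes GRP7 (−2.27 ± 0.34) and GRP8 (−1.10 ± 0.16) as the lower ones. In nse4a-2 again 6 were higher, among them the light-harvesting gene CAB2 (1.88 ± 0.21), CAT2 (1.5 ± 0.20), DFR (1.46 ± 0.22) and PIF5 (1.44 ± 0.18), and CO was lower (−1.78 ± 0.33), where 8.94% and 5.74% of all genes were called. Between the genotypes in control medium CDF3 was called higher in nse4a-2 and PIF5, CAB2 and PIF4 lower, against 2.28% and 0.854% of all genes. In zebularine 4 were higher, GRP7, GRP8, PORA and CAT3, and 2 lower, DFR and CDF1, against 12.9% and 9.09%. With other settings the control-medium counts stayed within 1 to 4 higher and 1 to 3 lower. The auxin synthesis gene YUC8, a known RVE1 target, stood between 1.08 and 1.86 CPM and was called in no comparison. The wild-type counts were 1 and 0 without WT_ctrl replicate 1, and the count higher was 3 without either WT_zeb library. The lower call in nse4a-2 was lost without nse4a-2_zeb replicate 2, and was joined by a second without either WT_zeb library.

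Of 7 light input genes, 1 was called higher in nse4a-2 than in wild type in zebularine, CRY2 (0.52 ± 0.10). CRY1 (−0.46 ± 0.11) and HY5 (−1.03 ± 0.18) were lower, where 12.9% of all genes were called higher and 9.09% lower. In control medium none was called, and up to 1 was called higher with other settings. With zebularine in wild type none of the 7 was called by edgeR or DESeq2, or had an unadjusted p below 0.05. In nse4a-2 the light-signalling factor gene HY5 fell by 2.0 ± 0.18 on the log2 scale (adjusted p 0.000265), also without any 1 library, and the photoreceptor gene CRY2 rose by 0.51 ± 0.10 (0.0107), 1 of 7 in each direction where 5.74% of all genes were lower and 8.94% higher. CRY2 was not called without either nse4a-2_zeb library, and 2 genes were called higher without nse4a-2_ctrl replicate 2 or WT_zeb replicate 2.

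Leaf photosynthesis markers moved in part with the zebularine responses. Of 5, LHCB2.1 was called higher in wild type (1.40 ± 0.16), and LHCB2.1 (2.24 ± 0.17), LHCA1 (1.28 ± 0.19) and RCA (0.78 ± 0.22) in nse4a-2, against 1.66% and 8.94% of all genes. Their summed level was 5970.5 to 7405 CPM in WT_ctrl, 5735 to 7002 in nse4a-2_ctrl, 6864 to 9692 in WT_zeb and 8420.3 to 9667 in nse4a-2_zeb. In control medium LHCB2.1 was the 1 marker of 5 called lower in nse4a-2 (−1.01 ± 0.16), against 0.854% of all genes, while LHCA1 was at −0.55 ± 0.18 (adjusted p 0.151) and the list median was −0.02. The part of leaf tissue in the members' changes was not tested.

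Of the 3 contrasts that the authors' deposited table calls, the one for zebularine in wild type gave the same 7 members. For zebularine in nse4a-2 the authors' deposited table called 6 members higher, leaving out RVE4 (0.49, adjusted p 0.105), and 2 lower, RVE1 (−0.66, adjusted p 0.041) and RVE2 (−1.33, adjusted p 0.001). For the genotype in control medium the authors' deposited table called 3 members higher, with RVE2 (1.46, adjusted p 0.001) beside CCA1 and RVE1, and LNK1 and LNK2 lower.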

How the data were processed

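Raw read counts per gene come from the table that the authors deposited, which per its headers are not normalized. The group means of FPKM, and for 3 contrasts a log2 fold change, an adjusted p-value and a call, are the authors' own, as deposited. TAIR10, TopHat2 and Cuffdiff are named in the submitters' processing notes with no version. The strand kept, the counting tool and the annotation are not given in the sources used here, so reads of overlapping or antisense genes cannot be told apart. Another 12 per-sample columns were not used. GEO lists 4 samples, 1 per group, whereas the table has 2 replicates of each.

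Of 32399 genes listed, 43 have no values. Genes were kept by filterByExpr (19682), normalized with TMM, and tested in edgeR 4.0.16 (R 4.3.3, limma 3.58.1) with 1 quasi-likelihood model for all groups. A call is a 2-sided adjusted p below 0.05 after Benjamini-Hochberg adjustment over all genes tested. Shares of all genes refer to such calls in this model of all 8 libraries. None are given for unadjusted p-values or for the other fits. An SE is the log2 fold change without its sign over the square root of F. The biological coefficient of variation common to all genes was 13.4%. Zebularine was compared with control within a genotype, the genotypes within a medium, and both zebularine responses with each other. CPM used the reads in the genes tested times the TMM factors. The procedure was also run on simulated data, whose outcome is not reported here and lends no weight to single calls. DESeq2 1.42.0 and other settings served as alternatives. The floor of 3 counts covers counting error alone, because reads lacking molecular identifiers are not independent.

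All 10 members are named. From each list up to 6 called genes with the largest change per comparison could be named, and 3 like genes were found per member. PRR5, CHE, YUC8, AT4G01280 and ASG4 were named after their values were seen. The members and lists were chosen with earlier results of these data known. Across genes, deviations of same-numbered replicates correlated at r of −0.0863 to 0.234, so the numbers were not taken to pair the libraries. Python 3.11.15 with pandas 2.3.3 was used for tables, numpy 2.4.6 for arrays and matplotlib 3.10.9 for figures.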

Additional observations from a re-analysis of the deposited data

Results flagged for a closer look

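The zebularine response differed between the genotypes, by the test of the difference itself, for 1 of the 10 members and 4 genes of the other lists. The 4 were 2 of 20 day and evening clock genes, 1 of 7 light input genes and 1 of 2 root markers tested. For that contrast 0.549% of all genes were called higher and 0.224% lower. For RVE1 the log2 response in nse4a-2 minus that in wild type was −2.69 (adjusted p 0.0296). For PRR3 it was 2.94 (adjusted p 0.0168), for PRR7 1.15 (adjusted p 0.0352) and for HY5, a light-signalling factor, −1.67 (adjusted p 0.0239). For the root marker COBL9 it was 5.77 (adjusted p 0.0362), a call lost without any 1 of the 8 libraries. HY5 stood at 9.80 and 10.3 CPM in WT_ctrl against 8.53 and 7.44 in WT_zeb, and at 14.7 and 16.6 in nse4a-2_ctrl against 4.13 and 3.69 in nse4a-2_zeb. The HY5 call was lost without any 1 of the WT_ctrl, nse4a-2_ctrl or nse4a-2_zeb libraries. The count of 2 for the day and evening clock genes, PRR3 and PRR7, was 1 without either WT_ctrl library, nse4a-2_ctrl replicate 2 or nse4a-2_zeb replicate 1, was 0 without nse4a-2_ctrl replicate 1 or nse4a-2_zeb replicate 2, and was 4 and 8 without WT_zeb replicate 1 and 2. It was 4 with DESeq2, 7 with no low-count filter and 6 with the replicate block. The RVE1 call was lost without WT_ctrl replicate 1 or any 1 of the nse4a-2 libraries.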

How the results depend on the processing

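Of the 50 member results, 23 were called, and 8 of these held without any 1 of the 8 libraries and in the other fits run: zebularine in wild type for CCA1, LHY and RVE8, and in nse4a-2 for CCA1, LHY, RVE8, LNK1 and LNK2. Over all fits, 571 of 640 values kept their direction and side of the threshold, 44 lost a call, 12 gained one and 13 changed sign. The number of members called lower for zebularine in nse4a-2 was 1 instead of 0 with no low-count filter, with the replicate block and with only the compared groups. For the genotype in control medium 1 instead of 2 members was higher with only the compared groups, and 3 with no low-count filter, RVE2 being added. The number called lower for the difference was 2 instead of 1 with DESeq2 and with no low-count filter. With single libraries left out, zebularine gave 3 to 7 members higher in wild type and 0 to 1 lower in nse4a-2, the genotype in control medium gave 0 to 2 higher and 0 to 2 lower, the genotype in zebularine 0 to 1 higher and 1 to 3 lower, and the difference 0 to 2 lower. The replicate block called RVE2 lower with zebularine in nse4a-2 (−1.44, adjusted p 0.0493) and changed no other member's call. Signs changed in some fits without a library, with no call at the changed sign. For zebularine in wild type RVE6 ran from −0.33 to 0.34 (−0.03 in another), RVE2 from −0.14 to 1.77 and RVE7 from −0.26 to 0.24 (0.04 in another). In nse4a-2 RVE7 ran from −0.70 to 0.19 (0.07 in another). The genotype difference of LNK1 in zebularine ran from −0.17 to 0.11 (0.08 in another). For the difference RVE8 ran from −0.52 to 0.03 and RVE7 from −0.66 to 0.23 (0.07 and 0.11 in others). The cause was not tested. Fits on log2 FPKM of single replicates, with a pseudocount of 1 or 0.1, were not run because those columns were not used. Settings for the other lists and their called genes were added after seeing the data.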
